A study of Mus musculus with 4 samples.

Results

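Cluster 5 is a group of single cells in the authors' deposited cell table of Peyer's patch immune cells. Its members were taken as the cells with cluster number 5 in that table, matched by library and barcode to the count matrices, and they numbered 468 of 22569 table cells. The series profiles white blood cells, sorted by CD45 from the Peyer's patches of female wild-type Taconic mice that carried segmented filamentous bacteria (SFB-positive) or lacked them (SFB-negative), with 2 libraries per group and no other treatment labelled. Cells of 5 mice were pooled per group, the age is not given in the sources used here, and whether the replicates of a group are separate pools is not stated. Of the members, 209 lay in SFB-positive replicate 2 and 258 in SFB-negative replicate 2, with 0 in SFB-positive replicate 1 and 1 in SFB-negative replicate 1. Cluster 5 thus made up 2.83% of table cells in SFB-positive replicate 2 (exact 95% binomial interval 2.47 to 3.24) and 3.34% in SFB-negative replicate 2 (2.95 to 3.76). The count of 0 in SFB-positive replicate 1 allows a share of up to 0.0880% (3 cells of 3408). It was compared with cluster 3 of the same 2 libraries, which held 830 SFB-positive and 719 SFB-negative cells, and with cluster 0, which held 2273 and 3752 cells, was high in genes of naive follicular B cells such as Satb1, and should lack dividing and class-switched cells.

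Each group was left with 1 usable library, and the clusters had been formed from the same expression values, so no test was made and every comparison is a description. Intervals are exact and cover counting error only. The replicate 2 libraries held 83600989 (SFB-positive) and 47273320 (SFB-negative) unique molecular identifiers (UMIs, counts of distinct captured RNA molecules) over 10338 and 12921 barcodes. The 2 replicate 1 libraries were shallower, with medians of 1273 and 1278 UMIs per barcode against 5786 and 2875, and carry another Cell Ranger version in their headers (6.0.0, against 7.0.0), so the replicate number, depth and processing cannot be told apart. Of the cluster 5 barcodes, 1 in SFB-positive replicate 2 and 2 in SFB-negative replicate 2 also occurred in another library.

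Germinal centres are the sites in lymphoid follicles where activated B cells divide, mutate their antibody genes and switch from IgM to other antibody classes. In Peyer's patches, which face the gut contents, they are a source of IgA-bearing B cells. Dividing cells make histone messenger RNA in S phase, then proteins of mitosis such as Mki67 and Top2a in G2 and M phase. Most messenger RNA carries a poly(A) tail, which the capture beads of 3′ droplet libraries bind, whereas replication-dependent histone messenger RNA ends in a stem-loop and ribosomal RNA (rRNA) is not made as polyadenylated message.

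The leading gene of cluster 5 was Gm26917, a gene annotated as a long intergenic non-coding RNA. It has 1 exon of 3329 bases at chr17:39843013-39846341 on the plus strand (GRCm38). The first 150 bases (chr17:39843013-39843162, plus strand) are shown because this RNA took the largest share of the cluster's UMIs in SFB-positive replicate 2.

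Gm26917: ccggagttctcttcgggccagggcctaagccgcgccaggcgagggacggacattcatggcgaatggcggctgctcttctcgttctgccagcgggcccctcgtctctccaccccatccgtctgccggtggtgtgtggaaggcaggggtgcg

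The annotated transcript is poor in adenine. A made up 8.26% of its bases and G and C together 69.1%, and its longest run of A was 4 bases. Only 0.0346% of 141767 annotated transcripts had so low an A content, against a median of 26.1%. Gm42418 lies downstream on the same strand at chr17:39846958-39848788, with AY036118 on the opposite strand at chr17:39847113-39848035. In RefSeq the same place holds Rn18s-rs5, a pseudogene related to small-subunit rRNA with Gm42418 as a synonym, at chr17:39846354-39848202, and 12 bases separate it from the end of Gm26917.

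Gm26917 reached 94029 CPM (a gene's UMIs scaled to a total of 1000000 over the summed cells) in cluster 5 of SFB-positive replicate 2, against 137 CPM in cluster 3. In SFB-negative replicate 2 it reached 52249 CPM in cluster 5, against 415 CPM in cluster 3. The log2 ratios, formed throughout on CPM plus 5, were 9.37 and 6.96. It was found in 197 of 209 SFB-positive and 239 of 258 SFB-negative cluster 5 cells, and the cell with most of it held 1225 of 36129 and 820 of 25676 UMIs. Its median share of a cell's UMIs was 11.7% and 5.74%, and the highest was 45.3% and 37.1%. Cells with 2% or more Gm26917 made up 158 of the SFB-positive and 180 of the SFB-negative members, against 1 and 6 cells of cluster 3 and 1 and 5 cells of cluster 0. Of all 163 and 195 table cells at or above that share in these libraries, 158 and 180 therefore lay in cluster 5.

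**Figure D1:**
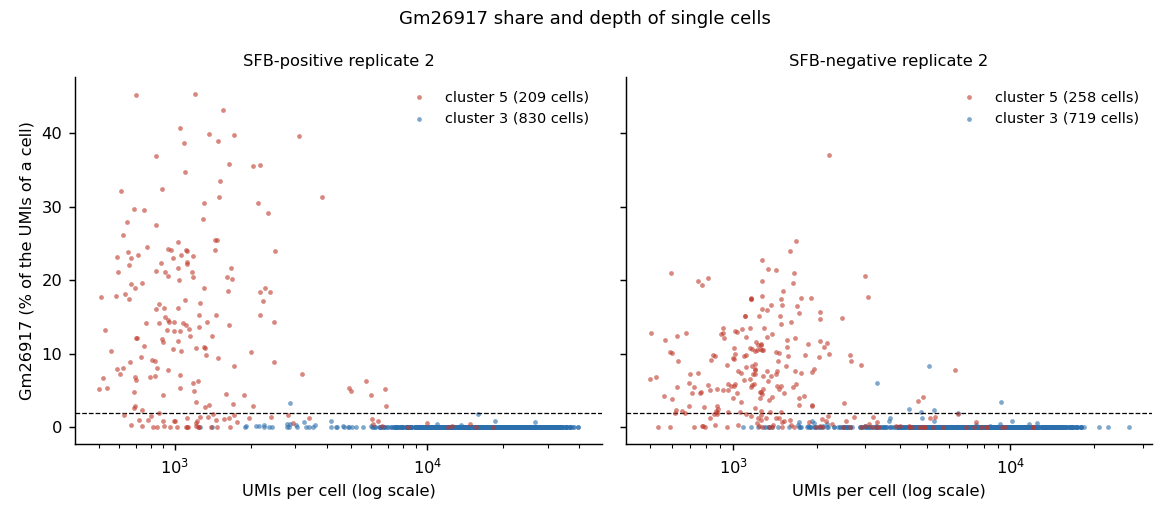
Each point is a cell of cluster 5 (red) or cluster 3 (blue) in the replicate 2 libraries, by its UMIs (x axis, log scale) and the percent of them from Gm26917 (y axis). The broken line marks 2%, which 158 and 180 cluster 5 cells reached, against 1 and 6 cluster 3 cells.

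Cluster 5 cells were shallow. Their median was 1115 UMIs and 659 genes in SFB-positive replicate 2, against 17122 UMIs and 4446.5 genes in cluster 3, a 15.4-fold gap in UMIs. In SFB-negative replicate 2 the medians were 1288.5 UMIs and 716 genes, against 7359 UMIs and 2456 genes in cluster 3, a 5.71-fold gap. The members' sums of 384231 and 491417 UMIs leaned on few cells, since the deepest 10 cells held 29.1% and 18.1% of them. The lowest members held 500 UMIs in both libraries, and the deepest 18142 and 12078.

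The cluster's working description calls it germinal-centre-like, and its given markers Mki67, Top2a, Mybl1, Peak1 and Lars2 were present. It stays unnamed here. Its median depth in SFB-positive replicate 2 was below 1954.5 UMIs, the bound set from the library's table median of 5863.5 UMIs divided by 3, although in SFB-negative replicate 2 its median of 1288.5 UMIs was above the same bound of 1084 UMIs. In addition, none of the germinal-centre markers stood among its 10 leading genes against all other table cells, which were Gm26917, Tex14, Ccnb1ip1, Hist1h2bm, Peak1, Il31ra, Hist1h2ac, Hist2h2bb, Hist1h4n and Hist1h3a.

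All 6498 genes with a mean of at least 20 CPM over the 4 sums were compared between clusters 5 and 3. In both libraries 407 genes (6.26%) were 2-fold or more higher in cluster 5 and 647 (9.96%) were 2-fold or more lower, and these are the genes called higher and lower below. The median log2 ratio of all measured genes was 0.03 (SFB-positive) and 0.34 (SFB-negative). The split depends on scaling. TMM scaling moved these medians to -0.22 and -0.21 and gave 145 higher and 1056 lower genes, and median-ratio size factors gave 196 and 942. List medians near 0 therefore have no firm sign, and each list's median below stands beside these medians of all genes.

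**Figure D2:**
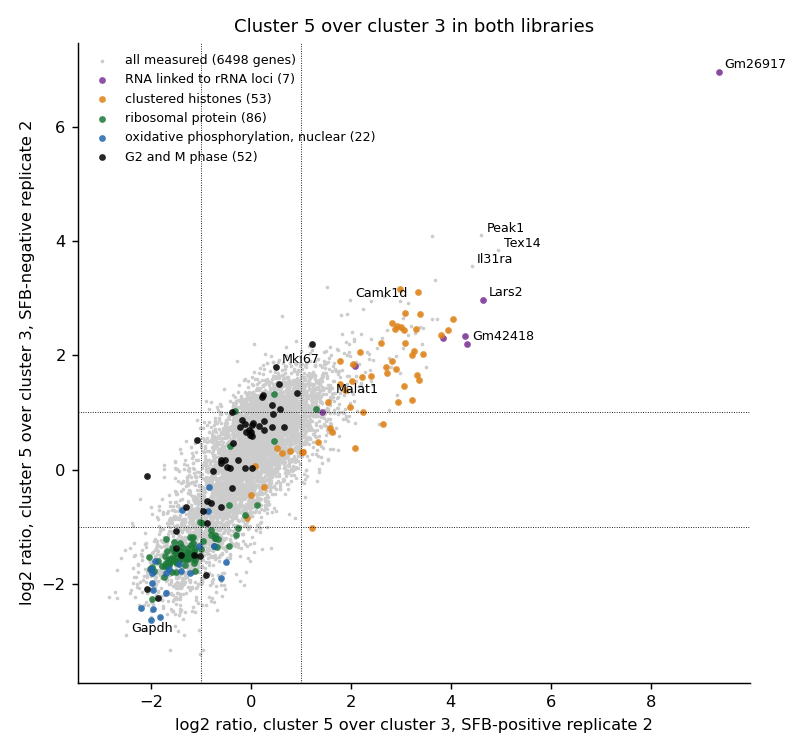
Each point is a measured gene, by its log2 ratio of cluster 5 over cluster 3 in SFB-positive replicate 2 (x axis) and SFB-negative replicate 2 (y axis), with dotted lines at 2-fold and the coloured lists in the legend. Most histone genes lie at the upper right, most ribosomal protein and oxidative phosphorylation genes at the lower left, and Gm26917 stands farthest out at 9.37 and 6.96.

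All 7 genes of a list of RNA linked to rRNA loci (Gm26917, Gm42418, AY036118, Lars2, Cmss1, Cdk8 and Filip1l) were higher in cluster 5 in both libraries. The list was put together with earlier results of these data known, so its direction is not independent evidence. Together they took 15.3% of the cluster's UMIs in SFB-positive and 18.7% in SFB-negative replicate 2, against 0.325% and 2.93% in cluster 3. Gm42418 reached 52458 and 108860 CPM in cluster 5, against 2615 and 23610 CPM in cluster 3. Lars2, which encodes the mitochondrial leucyl-tRNA synthetase and lies at chr9:123366927-123462666, reached 955 and 2774 CPM against 33.4 and 351 CPM. Cmss1 (4404 and 10580 CPM, against 222 and 2099 CPM), Cdk8, a kinase of the Mediator complex (1098 and 9387, against 71.4 and 1891 CPM), and AY036118 (226 and 2837, against 49.3 and 804 CPM) behaved alike. Filip1l, which overlaps Cmss1 on the opposite strand, had the smallest ratios (log2 1.42 and 1.00) and was not called under either TMM or size-factor scaling. The cluster 3 levels of Gm42418, Cmss1, Cdk8, Lars2 and AY036118 were all lower in SFB-positive than in SFB-negative replicate 2, by log2 differences between -4.63 and -3.17.

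Outside that list and the histones, the highest ratios belonged to Tex14, Peak1, Il31ra, Ccnb1ip1 and AC127341.3. Tex14, needed in mouse for the bridges between germ cells, had 554 CPM (482 to 634) and 252 CPM (210 to 301) in cluster 5, against 13.1 and 12.98 CPM in cluster 3. Peak1, which encodes a pseudokinase scaffold of the cytoskeleton, had 1114 and 598 CPM against 40.9 and 30.3 CPM, and was found in 137 of 209 and 132 of 258 members. Il31ra, a subunit of the interleukin-31 receptor, had 174 and 598 CPM against 3.38 and 46.4 CPM. Ccnb1ip1, a protein of meiotic crossing-over, had 75.5 and 283 CPM against 1.49 and 11.9 CPM. The antisense gene AC127341.3 (chr17:27545707-27556518, minus strand) had 67.7 and 69.2 CPM against 0.675 and 2.42 CPM, on 26 and 34 UMIs. In each of these genes both cluster 5 values were above both cluster 3 values.

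Clustered histone genes, most of which are replication-dependent, gave the most higher genes of the lists described. Of 67 listed, 53 were measured and 38 were higher in cluster 5 while 0 were lower, with median log2 ratios of 2.64 and 1.64. The minimum of 20 CPM is a mean that includes cluster 5, so some members were measured only through their level there. Hist1h4b, for example, had 20.8 and 50.9 CPM in cluster 5, against 0.675 and 8.48 CPM in cluster 3. For such genes a higher call follows from the filter, so the histone counts here and below are not independent evidence of direction. All 15 measured H2B genes were higher, as were 9 of 11 H4, 6 of 9 H3, 6 of 13 H2A and 2 of 5 H1 genes. Under TMM scaling 27 were higher and under size factors 31. Hist2h4 had 151 and 138 CPM in cluster 5, against 4.39 and 18.2 CPM in cluster 3. Hist4h4 had 75.5 and 95.6 CPM against 2.97 and 6.75 CPM, and Hist1h4n had 232 and 230 CPM against 10.5 and 38.1 CPM. The linker histone Hist1h1c had 776 and 647 CPM against 187 and 217 CPM. Hist1h1b, another linker histone, had 698 and 891 CPM against 732 and 1606 CPM and was not called. Hist1h1e, the most abundant member in cluster 5, had 1176 and 2010 CPM against 380 and 1277 CPM and passed 2-fold only in SFB-positive replicate 2. Reads of near-identical histone genes can be split or lost in counting, so single members are uncertain.

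The histone stem-loop was searched in the annotated transcripts, on the transcript strand, as GGCNCTTTTNAGNGCC. It was found in 42 of the 67 genes in 5 forms, and in 49 of all 141767 annotated transcripts (0.0346%). The commonest form stood in 26 genes and the next in 7, shown here with the paired stem in capitals.

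Hist1h1c stem-loop (chr13:23739512-23739527, plus strand): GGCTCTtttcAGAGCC

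Hist1h4n stem-loop (chr13:21831798-21831813, minus strand): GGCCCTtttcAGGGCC

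The Hist1h1c form belonged to 26 genes and the Hist1h4n form to 7. Of the 35 measured genes with a match, 24 were higher, and of the 18 measured genes with no match, 14 were higher. A match is a description of the annotated sequence, and no match says only that these letters were not found. Where a match was found, between 3 and 4884 annotated bases followed it, with 840 in Hist1h1c and 31 in Hist1h4n.

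The lowest ratios outside the respiratory chain belonged to Gapdh, Anxa2, Tmem256, Mzb1, Txn1, Lipc, Pla2g16, Pafah1b3 and Snrpe. Gapdh, an enzyme of glycolysis, had 252 and 149 CPM in cluster 5, against 1457 and 1139 CPM in cluster 3. Txn1, which encodes thioredoxin, had 120 and 91.6 CPM against 537 and 667 CPM. Anxa2, a membrane-binding annexin, had 39.0 and 22.4 CPM against 241 and 167 CPM. Snrpe, a core protein of the splicing machinery, had 98.9 and 116 CPM against 409 and 718 CPM. Mzb1, a chaperone cofactor of antibody assembly, had 104 and 169 CPM against 697 and 824 CPM. Pafah1b3 (log2 -2.24 and -2.37), Tmem256 (-2.84 and -2.23), Lipc (-2.72 and -2.14) and Pla2g16 (-1.61 and -3.15) were the others. Lipc and Pla2g16 rested on few UMIs, with 4 and 6 UMIs of Lipc and 5 and 1 UMIs of Pla2g16 in cluster 5.

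Nuclear genes of oxidative phosphorylation, which build the respiratory chain, were lower for 16 of 22 measured and higher for 0. Their median log2 ratios were -1.67 and -1.79. The 3 lowest were Ndufa1 (20.8 and 40.7 CPM, against 98.1 and 277 CPM in cluster 3), Ndufa4 (62.5 and 97.7, against 303 and 542 CPM) and Cox6b1 (54.7 and 126, against 312 and 578 CPM). Cox4i1 had 211 and 271 CPM against 667 and 919 CPM. Atp5a1 had 271 and 226 CPM against 492 and 378 CPM and was not called. The 13 genes encoded in the mitochondrial genome, which serve the same chain, gave 0 higher and 0 lower, with medians of 0.03 and -0.04 that became -0.24 and -0.65 under TMM and -0.14 and -0.54 under size factors. These values lean on the deeper members, since with each cell weighted equally the medians were -0.64 and -0.73. The median mitochondrial share per cell was likewise lower in cluster 5, at 1.67% and 0.972%, against 3.86% and 3.26% in cluster 3. In the sums mt-Co3 had 9187 and 6176 CPM in cluster 5, against 9292 and 6342 CPM in cluster 3.

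Of 86 measured genes matched by name as ribosomal proteins, 63 were lower and 1 was higher, and the higher one, Rps6kb2, is a kinase of a ribosomal protein and not a part of the ribosome. The medians were -1.30 and -1.46, and the summed share was 7.02% and 9.83% of UMIs in cluster 5, against 17.1% and 26.6% in cluster 3. Rps24 had 1720 and 2973 CPM in cluster 5, against 3828 and 6715 CPM. Rpl13, the most abundant member in cluster 5, had 2850 and 3105 CPM against 4984 and 6837 CPM and was not called. Members of this family have many near-identical pseudogenes, which can take reads in counting. The antibody light chain Igkc had 1744 and 1451 CPM in cluster 5, against 5881 and 4936 CPM in cluster 3, and Iglc1 had 193 and 79.4 CPM against 492 and 623 CPM.

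Depth moved with these results, and its part in them was not tested. Set against the cluster 3 cells that lay within the 5th and 95th percentiles of cluster 5 depth (38 and 194 cells, called depth-limited here, whose median of 3356.5 and 4047 UMIs was still above that of cluster 5), 49 of 51 measured histone genes were higher, with medians of 2.81 and 2.72. Cluster 5 kept all its members here, including those deeper than the 95th percentile. Ribosomal protein genes were then lower for 43 of 85 and nuclear oxidative phosphorylation genes for 15 of 22. Gm26917 stood at 1797 and 1789 CPM in those cluster 3 cells, against 94029 and 52249 CPM in cluster 5. Over all 6537 measured genes 317 (4.85%) were then higher and 404 (6.18%) lower, of which 179 and 353 were also called against all of cluster 3.

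**Figure D3:**
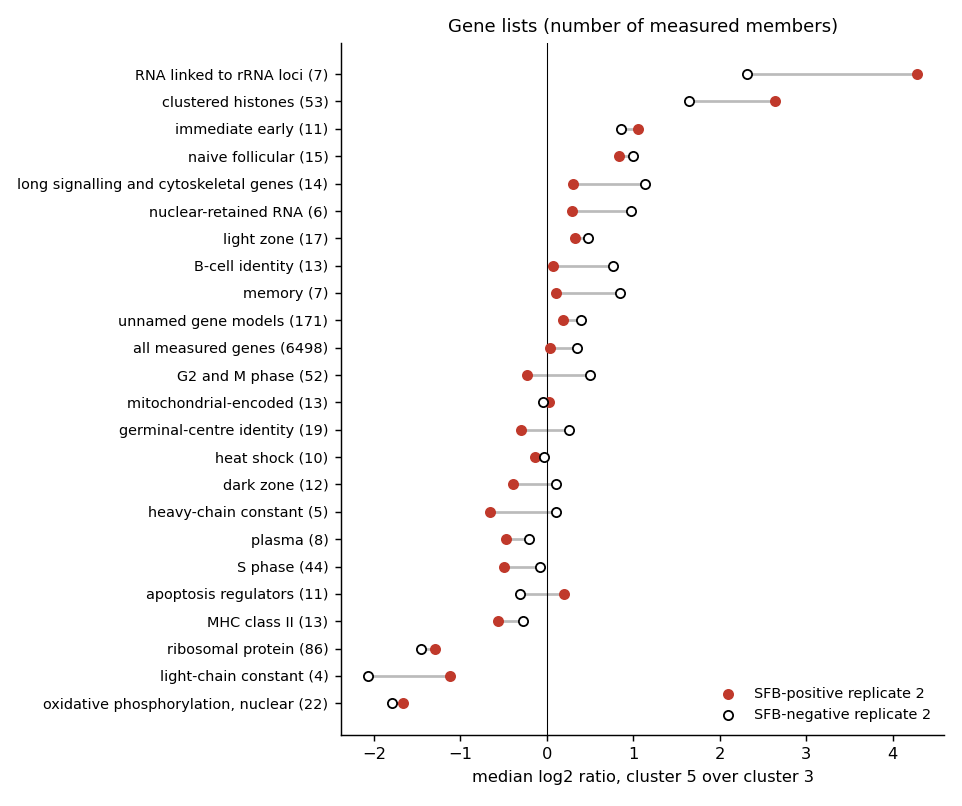
Median log2 ratio of cluster 5 over cluster 3 (x axis) for gene lists (rows), with SFB-positive replicate 2 filled in red and SFB-negative replicate 2 as open points. RNA linked to rRNA loci and histones lie farthest to the right, and the ribosomal protein (-1.30 and -1.46), light-chain and nuclear oxidative phosphorylation (-1.67 and -1.79) lists farthest to the left.

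The given markers of division were present near or above the level of cluster 3. Mki67, which coats mitotic chromosomes, had 1025 CPM (927 to 1132) and 794 CPM (717 to 876) in cluster 5, against 717 and 225 CPM in cluster 3 and 3.76 and 2.62 CPM in cluster 0. Top2a, the topoisomerase that untangles sister chromosomes, had 664 and 743 CPM, against 677 and 456 CPM in cluster 3. Mybl1, a transcription factor of dark-zone germinal-centre B cells, had 450 and 277 CPM against 312 and 143 CPM. None of the 3 was called in both libraries. Mki67 was found in 94 of 209 and 121 of 258 members, so its level did not rest on a few cells.

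Promoters of Mki67 and Top2a are shown because they are the division genes that mark the cluster, with the motifs CCAAT (bound by NF-Y) and TTTGAA (the cell cycle homology element) in capitals on either strand. Each runs from 250 bases before to 50 after the RefSeq start (GRCm38.p6).

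Mki67 promoter (chr7:135716330-135716629, minus strand): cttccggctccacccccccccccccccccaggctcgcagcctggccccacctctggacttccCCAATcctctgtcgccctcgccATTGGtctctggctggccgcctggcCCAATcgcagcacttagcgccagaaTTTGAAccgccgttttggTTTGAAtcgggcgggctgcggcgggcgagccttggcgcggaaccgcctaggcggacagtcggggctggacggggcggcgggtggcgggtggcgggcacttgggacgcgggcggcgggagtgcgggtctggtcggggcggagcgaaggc

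Top2a promoter (chr11:99024140-99024439, minus strand): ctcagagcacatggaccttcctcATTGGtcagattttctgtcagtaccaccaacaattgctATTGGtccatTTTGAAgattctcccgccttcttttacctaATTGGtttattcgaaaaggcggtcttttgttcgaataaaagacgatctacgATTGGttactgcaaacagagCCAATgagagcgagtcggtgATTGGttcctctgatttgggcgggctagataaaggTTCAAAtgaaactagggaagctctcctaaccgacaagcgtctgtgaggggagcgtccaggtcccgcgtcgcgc

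Both hold CCAAT and TTTGAA in these windows, Mki67 with 3 and 2 matches and Top2a with 6 and 2. CCAAT was found in 41 of 54 G2 and M phase gene promoters (75.9%), 25 of 40 S phase promoters (62.5%) and 8 of 25 germinal-centre identity promoters (32.0%), against 37.4% of all 32851. TTTGAA was found in 66.7%, 15% and 28% of these, against 17.9% of all. The E2F-type motif TTTCCCGC stood in 1.85% of G2 and M phase, 15% of S phase and 0% of germinal-centre identity promoters, against 1.07% of all. TTTGGCGC stood in 1.85%, 17.5% and 4%, against 0.514%. All motifs were searched on both strands, matches of different motifs can share bases, and a match is a description of sequence.

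Cell-cycle genes are to be read beside all measured genes, of which 6.26% were higher and 9.96% lower with totals as the scale. Under TMM 145 of all 6472 measured genes were higher and 1056 lower, and under size factors 196 and 942 of 6469. Of 52 measured G2 and M phase genes, 1 was higher (1.92%) and 7 were lower (13.5%), with medians of -0.24 and 0.49. Under TMM scaling the second median became -0.03, and 0 of these genes were higher and 13 lower (1 and 12 under size factors). The higher gene was Anln (78.1 and 75.3 CPM, against 30.8 and 12.5 CPM), an actin-binding protein of cell division. The lower ones were Hmgb2, a chromatin protein (971 and 794 CPM, against 1971 and 2267 CPM), Anp32e, Birc5 (44.2 and 44.8, against 202 and 207 CPM), Ccnb2, Cdca3, Cks1b and Ube2c (88.5 and 69.2, against 260 and 187 CPM), which act in mitosis and its control. Of 44 measured S phase genes 0 were higher and 1 was lower (2.27%), with medians of -0.50 and -0.08. Under TMM 11 of them were lower and under size factors 8. The gene lower with totals was Gins2, a helicase subunit (5.21 and 6.10 CPM, against 38.4 and 38.6 CPM). Pola1, a DNA polymerase subunit, had 479 and 442 CPM against 353 and 183 CPM, and Clspn, a checkpoint protein, had 320 and 299 CPM against 159 and 102 CPM. Against depth-limited cluster 3 cells, 12 of 42 S phase and 8 of 51 G2 and M phase genes were higher and 0 of the G2 and M phase genes lower. Over all genes of that comparison, which used 38 and 194 cluster 3 cells, 4.85% were higher and 6.18% lower.

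Genes of germinal-centre B cells were called about as often as all measured genes. Of 19 measured identity genes 1 was higher (5.26%) and 2 were lower (10.5%), against 6.26% and 9.96% of all measured genes. Their medians were -0.30 and 0.26, against 0.03 and 0.34 for all measured genes, and the second became -0.32 under TMM scaling. Cd38, a surface enzyme that mouse germinal-centre B cells lower, had 104 and 48.8 CPM in cluster 5, against 27.6 and 20.6 CPM in cluster 3. Lmo2 (39.0 and 46.8, against 97.4 and 112 CPM) and Rgs13, a regulator of chemokine receptor signals (177 and 179, against 484 and 475 CPM), were lower. Bcl6, the master repressor of the germinal-centre programme, had 221 and 155 CPM against 177 and 66.1 CPM. Bach2, a repressor of plasma cell fate, had 3878 and 2873 CPM against 3451 and 1481 CPM, and 1 cell held 297 of its 1490 SFB-positive UMIs. Of 12 measured dark-zone genes 0 were called in either direction, and of 17 light-zone genes 1 (Egr3) was higher and 1 (Cd74) lower.

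Because cluster 5 is shallow, each cell was thinned to 500 UMIs before shares of cells were compared, which left out 0 cells. Mki67 then had a UMI in 25.8% of SFB-positive (20.04 to 32.3) and 21.7% of SFB-negative (16.8 to 27.2) cluster 5 cells, against 20.5% and 9.04% in cluster 3. In cluster 0, which should lack it and whose median depth was 5249 and 2962 UMIs, it had a UMI in 0.220% and 0.187%. Top2a reached 19.6% and 23.3%, against 17.0% and 13.2% in cluster 3 and 0.396% and 0.800% in cluster 0. The share with any G2 and M phase gene was 81.3% and 82.9%, against 83.6% and 77.3% in cluster 3 and 50.9% and 50.2% in cluster 0. These shares stood near those of cluster 3 or above them, and far above those of cluster 0.

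Other shares parted from cluster 3. Peak1 had a UMI in 45.0% and 30.2% of thinned cluster 5 cells, against 1.81% and 1.81% in cluster 3 and 3.39% and 2.16% in cluster 0. Tex14 reached 25.8% and 13.2%, against 0.964% and 0.974% in cluster 3. Lars2 reached 39.7% and 74.8%, against 2.53% and 17.0% in cluster 3 and 1.94% and 29.5% in cluster 0. Igkc was found in fewer cells, 53.6% and 39.5%, against 83.5% and 78.0%. Cd79a, a subunit of the B cell receptor, was found in 18.2% and 22.1%, against 47.8% and 54.2% in cluster 3 and 61.5% and 62.6% in cluster 0. Basp1, a germinal-centre gene, was found in 23.9% and 15.1%, against 35.2% and 31.4% in cluster 3 and 0.440% and 1.04% in cluster 0.

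**Figure D4:**
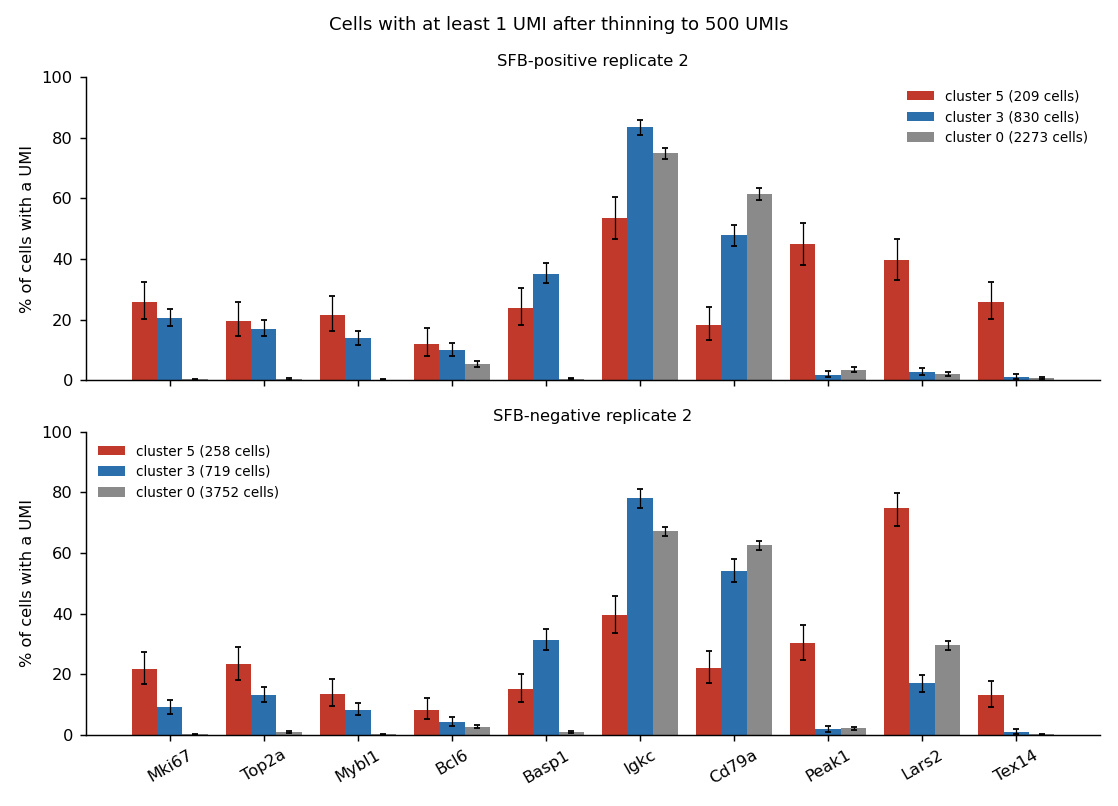
Percent of cells with at least 1 UMI of each gene after thinning to 500 UMIs per cell (y axis), for clusters 5, 3 and 0 in each replicate 2 library (panels), with exact 95% intervals. Mki67, Top2a and Mybl1 stand near cluster 3 or above it and far above cluster 0, Peak1, Lars2 and Tex14 stand above both, and Cd79a and Igkc stand below both.

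Other gene groups were mixed, and their counts are to be read beside all measured genes, of which 6.26% were higher and 9.96% lower. Of 11 measured immediate early genes, which respond within minutes to a stimulus or to handling, 5 were higher and 0 lower, with medians of 1.05 and 0.86, although only 1 was higher under TMM or size-factor scaling. Jun had 458 and 163 CPM in cluster 5, against 82.7 and 29.3 CPM in cluster 3, and Fos had 206 and 104 CPM against 57.9 and 40.2 CPM, with Dusp1, Fosb and Zfp36 the others. Malat1, a long RNA kept in the nucleus, had 15259 and 15118 CPM against 5091 and 6254 CPM in cluster 3 and 17171 and 16552 CPM in cluster 0, and 10927 and 10344 CPM in depth-limited cluster 3 cells. Of 15 measured naive follicular genes 4 were higher, but 0 under either TMM or size factors. They were Ccr7, Ighd, S1pr1 and Satb1 (739 and 590 CPM, against 288 and 277 CPM in cluster 3 and 2747 and 1345 CPM in cluster 0). Of 13 B cell identity genes, Cd22 was higher (403 and 293 CPM, against 124 and 96.4 CPM) and Cd79a (547 and 647, against 1339 and 1494 CPM) and Cd79b (453 and 462, against 1072 and 998 CPM) were lower. Of 11 apoptosis genes, Pmaip1 was higher (115 and 54.9, against 25.1 and 10.0 CPM) and Bad, Bak1 and Bax lower, and of 10 heat shock genes 0 were called. Shares higher and lower were 7.69% and 15.4% for B cell identity and 9.09% and 27.3% for apoptosis genes, on few genes each.

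Marker lists of other cell types summed to between 2.03 and 179 CPM in cluster 5. The summed T cell list had 156 and 179 CPM in cluster 5, against 90.1 and 62.8 CPM in cluster 3 and 29.7 and 44.4 CPM in cluster 0, with 2 and 2 of its 12 genes at 0. Lck, which some B cells also express, made up 107 and 65.1 CPM of it, and the defining gene Cd3g had 1 and 8 UMIs. The T cell receptor gene Trbc1 had 4 UMIs in the SFB-positive and 19 in the SFB-negative library, where 1 cell held 17 of them. Myeloid genes summed to 85.9 and 77.3 CPM, against 160 and 161 CPM in cluster 3, with 9 and 9 of 12 at 0. Epithelial genes summed to 13.01 and 24.4 CPM, against 6.21 and 17.5 CPM, with 11 and 8 of 12 at 0, and red cell genes to 2.60 and 2.03 CPM, against 8.91 and 27.01 CPM, with 4 and 4 of 5 at 0. Stromal genes summed to 91.1 and 126 CPM, against 77.2 and 68.4 CPM, with 7 and 5 of 9 at 0. Of these 9 genes only 1 reached the minimum to be measured. The part of such cells in the results was not tested.

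Members differed among themselves along the Gm26917 share. In SFB-positive replicate 2, 24 members held under 0.5%, 27 between 0.5% and 2%, 16 between 2% and 5%, and 59 held 20% or more. In SFB-negative replicate 2 the same classes held 48, 30, 37 and 10 members. Members at 2% or more had a median mitochondrial share of 1.24% and 0.591% of UMIs, against 2.99% and 4.20% in members under 2%. Their ribosomal protein share was 3.11% and 7.34%, against 8.92% and 8.34%, and their Gm42418 share 6.04% and 16.7%, against 1.74% and 5.53%. Their median depth was 1052 and 1238.5 UMIs, against 1349 and 2132 UMIs. The 2% limit was set on this share, so differences that follow from a cell's total of 100% are part of these values, and they are given without a test.

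Genes split accordingly. Peak1 had 1895 and 1117 CPM in members at 2% or more, against 129 and 88.7 CPM in members under 2%. Lars2 had 1493 and 4447 CPM, against 277 and 1130 CPM, and Tnf, a cytokine gene, had 229 and 107 CPM, against 35.3 and 36.3 CPM. Tex14 had 677 and 345 CPM, against 400 and 161 CPM. The division genes were present on both sides. Mki67 had 798 and 690 CPM, against 1312 and 896 CPM, and Top2a had 485 and 628 CPM, against 889 and 855 CPM. Bach2 and Ebf1, a B lineage transcription factor, were lower at 2% or more. Bach2 had 2049 and 1618 CPM, against 6185 and 4107 CPM, with 297 of its 1490 SFB-positive UMIs in 1 cell. Ebf1 had 1661 and 1261 CPM, against 4308 and 4199 CPM. Fcer2a, a receptor of follicular B cells, had 51.3 and 28.7 CPM, against 171 and 218 CPM, whereas Klf2, a factor of resting lymphocytes, had 397 and 123 CPM, against 359 and 278 CPM.

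Set against cluster 3, members at 2% or more had 8.20% of 6425 measured genes higher and 13.1% lower, and members under 2% had 5.94% of 6482 higher and 6.53% lower. Calls of all genes were thus also more frequent at 2% or more, and the lists below are to be read against these shares. Members at 2% or more had 44 of 57 measured histone genes higher (medians 3.20 and 2.30), and members under 2% had 8 of 40 (1.42 and 0.62). Measured genes were chosen anew for each side, and a gene can enter through a high level in that side's own members. These histone counts and medians therefore cover unlike gene sets, and the difference between the sides was not tested. Ribosomal protein genes were lower for 69 of 86 in members at 2% or more, and for 29 of 85 in members under 2%. Mitochondrially encoded genes had medians of -0.72 and -1.38 in members at 2% or more, and 0.55 and 0.62 in members under 2%. Nuclear oxidative phosphorylation genes were lower on both sides, for 17 and 14 of 22. Of 15 naive follicular genes 0 were higher at 2% or more, and 6 under 2%.

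Antibody heavy-chain constant genes lie in a row on chromosome 12, and class switching joins a B cell's variable region to one of them. Cluster 5 held 519 (SFB-positive) and 537 (SFB-negative) UMIs of these genes. Igha, the IgA gene at chr12:113254830-113260236 (minus strand), made up 32.4% (28.4 to 36.6) of them in SFB-positive cluster 5, against 6.70% (4.74 to 9.16) in SFB-negative cluster 5. Ighg1, the IgG1 gene at chr12:113325240-113330523, made up 1.93% (0.928 to 3.51), against 44.7% (40.4 to 49.0). Ighg2b at chr12:113302965-113307933 made up 17.7% (14.5 to 21.3), against 5.77% (3.96 to 8.09), and Ighm, the IgM gene at chr12:113418558-113422730, 40.3% (36.0 to 44.6), against 32.0% (28.1 to 36.2). UMIs of a gene cluster in cells, with 27 of the 168 Igha UMIs of SFB-positive cluster 5 in 1 cell, which the counting intervals do not cover. Ighg2b reads can be shared with the similar gene Ighg2c, which had 0 UMIs here.

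Cluster 3 showed the same contrast. There Igha made up 38.2% in SFB-positive and 8.16% in SFB-negative replicate 2, Ighg1 3.75% and 46.7%, Ighg2b 19.6% and 4.64%, and Ighm 35.6% and 35.7%. Switched classes together made up 52.4% of the heavy-chain UMIs in SFB-positive and 57.4% in SFB-negative cluster 5, against 62.5% and 59.7% in cluster 3 and 2.67% and 2.17% in cluster 0. Members differed by Gm26917 share. Switched classes made up 68.1% (61.7 to 74.0) and 67.2% (60.8 to 73.2) in members at 2% or more. They made up 39.4% and 49.8% in members under 2%. In the SFB-positive library, 1 member at 2% or more held 27 of the 160 switched UMIs. There, 1 member under 2% held 52 Ighm UMIs of the 284 heavy-chain UMIs. Ighd, the IgD gene of unswitched cells, made up 7.32% and 10.6% in cluster 5, against 1.89% and 4.62% in cluster 3. It made up 5.96% and 4.31% in members at 2% or more Gm26917, and 8.45% and 15.4% in members under 2%. With each cell weighted equally, the log2 ratios of Ighd CPM over cluster 3 were 1.10 and 0.14, against 1.32 and 1.27 in the sums. In SFB-positive cluster 5, 1 cell held 10 of the 38 Ighd UMIs. Over cells, Igha was found in 76 members (36.4%) of SFB-positive and 20 (7.75%) of SFB-negative replicate 2, against 11.04% and 2.29% of cluster 0 cells, which were deeper (median 5249 and 2962 UMIs). Ighg1 was found in 9 (4.31%) and 119 (46.1%), against 0.924% and 3.52% of cluster 0 cells. Among the 144 and 182 members with any heavy-chain UMI, Igha was the commonest in 36.1% and 6.59%, and Ighg1 in 2.08% and 52.2%. A single SFB-positive member supplied 52 of the 209 Ighm UMIs there, and Ighm made up 33.8% without it. In members at 2% or more Gm26917, Igha made up 43.4% in SFB-positive and 4.31% in SFB-negative replicate 2 and Ighg1 1.28% and 57.3%, so the contrast was present there too.

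**Figure D5:**
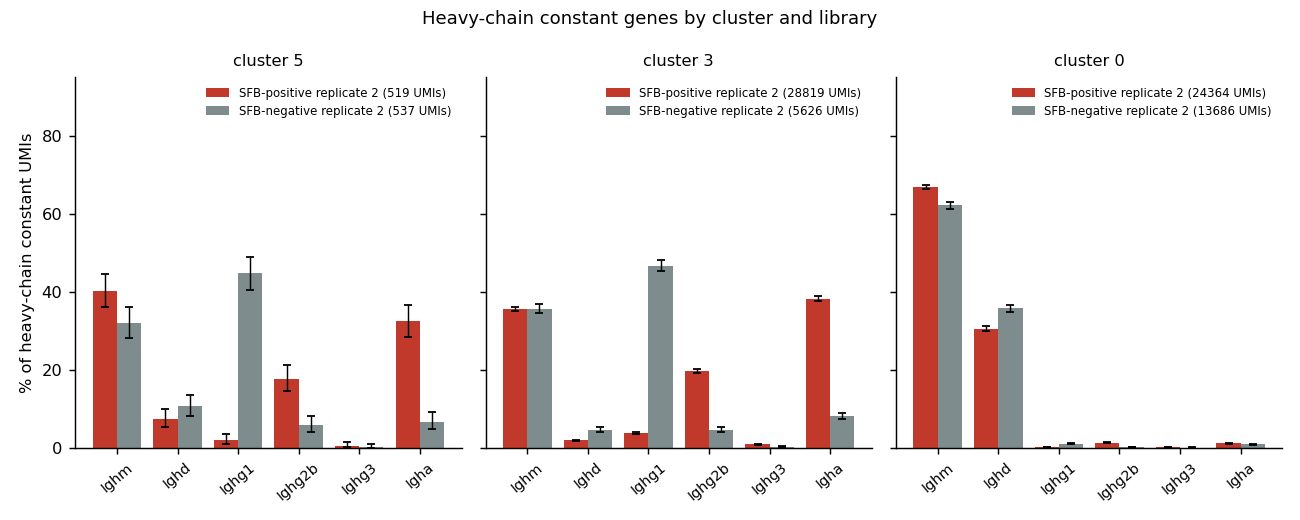
Percent of heavy-chain constant-region UMIs (y axis) from each gene (x axis) in clusters 5, 3 and 0 (panels), with SFB-positive replicate 2 in red on the left of each pair and SFB-negative replicate 2 in grey, and exact 95% intervals that cover counting error only. In cluster 5 Igha stood at 32.4% in the SFB-positive and 6.70% in the SFB-negative library, and Ighg1 at 1.93% and 44.7%.

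Between the SFB groups, 6618 genes were measured in cluster 5 with 1 library a group, and no replicate check was possible. In SFB-positive cluster 5, 273 (4.13%) were 2-fold or more higher and 161 (2.43%) 2-fold or more lower than in SFB-negative cluster 5. The larger direction turned with scaling, with 182 higher and 210 lower under TMM, 153 and 245 under size factors, and 313 and 337 when mitochondrial, ribosomal protein, antibody and rRNA-linked genes were left out of the total. Beside Igha and Ighg2b, the highest were Hspa1b (237 CPM in SFB-positive and 24.4 CPM in SFB-negative cluster 5) and Hspa1a (370 and 63.1 CPM), heat shock chaperones with near-identical sequence whose reads may be split between them, and 1 cell held 53 of the 142 SFB-positive Hspa1a UMIs. Slc15a2, a peptide transporter, had 154 and 32.6 CPM, and Irf4, a transcription factor of activated B cells, had 133 and 32.6 CPM. The log2 differences were also positive in clusters 3 and 0 for these 4 genes, with 2.64 and 1.39 for Hspa1b, 2.95 and 1.54 for Hspa1a, 1.59 and 2.08 for Slc15a2, and 0.81 and 0.24 for Irf4. Heat shock genes were higher for 4 of 10 and light-zone genes for 5 of 17, and 0 of either list was lower. The same genes differed alike in cluster 3. Median log2 differences were 0.71 in cluster 5 and 0.80 in cluster 3 for heat shock genes, and 0.36 and 0.44 for light-zone genes.

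The lowest genes were Ighg1, Ighv1-47, Tsix, AY036118, Cdk8 and Camk1d. Ighv1-47, an antibody variable segment, had 0 UMIs in SFB-positive cluster 5 (an interval of 0 to 9.60 CPM) and 59 UMIs in 38 cells of SFB-negative cluster 5 (120 CPM, 91.4 to 155). Its log2 difference of -4.64 stood beside -2.94 in cluster 3. Tsix, the antisense partner of Xist, had 5.21 and 124 CPM, and its locus overlaps that of Xist on the opposite strand. Camk1d, a kinase gene, had 1322 CPM in SFB-positive and 7554 CPM in SFB-negative cluster 5, and its log2 difference of -2.51 stood beside -1.52 in cluster 3 and -2.18 in cluster 0. Of the 7 genes of RNA linked to rRNA loci, 5 were lower and 0 higher in SFB-positive cluster 5, while Gm26917 itself was higher in value, at 94029 and 52249 CPM. Since the libraries differ in depth and in the level of these RNAs in every cluster, a library effect and an effect of SFB cannot be told apart.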

How the data were processed

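Single-cell 3′ libraries (Chromium v3.1) were made from sorted CD45+ cells, per the labels' protocols. Alignment was to mm10 with Cell Ranger 5.0.1, per the submitters' processing notes, whereas the file headers name 6.0.0 for replicate 1 and 7.0.0 for replicate 2. Whether intronic reads were counted is not given in the sources used here, and it affects the levels of long and nuclear RNA. The authors deposited raw UMI counts for each library and a table of the filtered cells. That deposited table gives the library code and cluster number (other), the counts of UMIs and genes, the mitochondrial percent, and map coordinates (a score, not used for results). How cells were filtered, clustered and cleared of doublets is not stated in the sources used here, and no doublet caller was run.

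Counts were summed per replicate 2 library and cluster and scaled to CPM of the summed UMIs, so cells of 1 library were not treated as replicates. A gene was measured at a mean of 20 CPM or more over the sums compared, log2 ratios used a pseudocount of 5 CPM, and a call needed a 2-fold difference (log2 of 1) in both libraries, or between the 2 sums for SFB. Poisson and Clopper-Pearson intervals were at 95%. A share from a count of 0 is given with the limit that 3 counts allow. Shares of cells used 500 UMIs per cell, drawn with seed 1. The 12 highest and 12 lowest genes by mean log2 ratio, the 6 highest and 6 lowest between SFB groups with at least 30 UMIs, and the 4 most abundant members of each list were the genes to name. List members named because they were called, and single cells singled out, were chosen after their values were seen. The members, gene lists and comparisons were chosen with earlier results of these data known, and the rule for cluster 5 rests on clusters that the authors formed from the same values.

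Alternatives were TMM (edgeR 4.0.16) and size-factor scaling (DESeq2 1.42.0), other minimums, pseudocounts and folds, depth-limited cells, and subsets of cells. Scaling factors alone were taken from those packages, with no count model, and the script was checked on simulated data. Some genes that the rules would name are not reported here. Replicate 1 libraries were left out because they hold 0 and 1 members. Annotation was GENCODE vM21 (GRCm38), and promoters came from RefSeq (GRCm38.p6). Python 3.11.15, numpy 2.4.6, pandas 2.3.3, scipy 1.17.1, matplotlib 3.10.9 and R 4.3.3 were used.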

Additional observations from a re-analysis of the deposited data

Results flagged for a closer look

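Barcodes with 2% or more Gm26917 also occurred outside the authors' cell table, in data that no comparison above uses. They numbered 33 of 2958 such barcodes (1.12%) in SFB-positive replicate 2, with a median of 1519 UMIs, and 19 of 5190 (0.366%) in SFB-negative replicate 2, with a median of 1427 UMIs. In replicate 1 there were 3 of 623 in the SFB-positive and 0 of 545 in the SFB-negative library.

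Cox16 and Hist1h4d passed 2-fold in opposite directions in the 2 libraries, and the difference between the libraries was not tested. The log2 ratio of cluster 5 over cluster 3 for Cox16, an assembly factor of the respiratory chain, was 1.25 in SFB-positive and -1.02 in SFB-negative replicate 2, on 12 and 7 UMIs in cluster 5. For the histone gene Hist1h4d it was 1.22 and -1.02, with 247 CPM in cluster 5 against 104 CPM in cluster 3 of SFB-positive replicate 2, and 696 CPM against 1418 CPM in SFB-negative replicate 2. Hist1h4d was lower in the SFB-positive library in every cluster compared, with log2 differences of -1.47 in cluster 5, -3.71 in cluster 3 and -3.91 in cluster 0.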

How the results depend on the processing

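No paired analysis was possible because the results come from no test and 1 usable library was left per group. The 407 genes higher in cluster 5 became 145 under TMM, 196 under size factors or with a pseudocount of 20 CPM, 198 with a minimum of 50 CPM, 614 with no minimum, 1138 at a fold of 1.5 and 108 at 3. The 647 lower genes became 1056 under TMM, 404 against depth-limited cluster 3 cells, 1138 at a fold of 1.5, 176 at 3, and 423 in members under 2% Gm26917. Leaving out either library, which drops the need for agreement, gave 591 to 1221 higher and 899 to 931 lower genes. The 273 genes higher in SFB-positive cluster 5 became 153 under size factors, 651 and 99 with minimums of 5 and 50 CPM, 895 with none, 72 with a pseudocount of 20, 33 at a fold of 3, 965 in thinned cells, 660 in members at 2% or more and 538 under 2%. The 161 lower ones became 245, 420, 58, 569, 67, 38, 600, 279 and 473 in the same order, and 337 when mitochondrial, ribosomal protein, antibody and rRNA-linked genes were left out of the total. Under TMM they were 182 higher and 210 lower, so the larger direction differs between these settings (also at a fold of 3). By the commonest gene per cell, Ighg2b stood at 27.1%, Ighm at 18.1% and Igha at 36.1% in SFB-positive cluster 5, where Ighm led Igha by UMIs, and Ighg1 at 52.2% and Ighm at 19.8% in SFB-negative cluster 5, and without its top cell SFB-positive Ighm stood at 33.8% of UMIs. Shares of cells thinned to 800 UMIs, then unthinned, were 36.2% and 45.0% for Mki67, 32.5% and 41.1% for Top2a, 85.9% and 85.6% for any S phase gene and 92.0% and 93.3% for any G2 and M phase gene in SFB-positive replicate 2. In SFB-negative replicate 2 they were 34.8% and 46.9%, 33.5% and 44.2%, 81.2% and 86.8%, and 92.4% and 95.3%. Depth limits single genes, since 20 CPM is fewer than 10 UMIs in either cluster 5 sum. The cause of these changes was not tested, except that other minimums and subsets change the genes or cells entered.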

Other observations

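Gene length moved with the ratios between clusters. The 6369 measured protein-coding genes were divided into 4 equal classes by annotated span, introns included. In the class of the shortest genes (0.204 to 12.2 kb) 28.4% were lower in cluster 5 and the median log2 ratios were -0.61 in SFB-positive and -0.69 in SFB-negative replicate 2. The share lower was 9.04% for 12.2 to 28.3 kb, 2.39% for 28.3 to 62.6 kb and 0.44% for 62.6 to 4435 kb, where the medians were 0.27 and 0.85. The share higher was 6.47%, 5.78%, 5.09% and 6.66% in the same classes. Across genes, which are not independent and share libraries and depth, Spearman's rho of span with the log2 ratio was 0.342 and 0.526.

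Over the members, Spearman's rho of the Gm26917 share was 0.619 and 0.460 with the Gm42418 share, -0.378 and -0.451 with the mitochondrial share, and -0.565 and -0.236 with the ribosomal protein share (209 SFB-positive and 258 SFB-negative cells). These shares have the same denominator in each cell. The rho with the histone share was 0.110 and 0.192, and with UMIs per cell -0.159 and -0.235.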
